A study of Ovis aries with 115 samples.

Results

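MUC5AC (ENSOARG00000009361) is 1 of the 27054 genes counted in the cervix of ewes of 4 sheep breeds. It is also 1 of the 15649 genes that reached 1 CPM in 10 or more ewes, CPM being the count scaled to a TMM-normalised library size rather than to the plain total. It was chosen from measured values. Earlier results of these data showed it lower in Fur than in Suffolk ewes at the synchronised follicular phase, with very high expression in 1 Suffolk ewe. The levels of those Fur and Suffolk ewes are therefore given as a description, and no contrast below compares them. They enter a fit only in the alternative that estimates the spread from all 12 groups.

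MUC5AC encodes a gel-forming mucin, a long secreted glycoprotein whose chains join end to end and hold water. In columnar epithelia the protein is folded and linked in the endoplasmic reticulum, dressed with sugar chains in the Golgi and packed into granules before release. In the cervix such mucins form the mucus that sperm must cross, and the amount and fluidity of this mucus change over the oestrous cycle.

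Suffolk and Belclare ewes came from Ireland, while Fur ewes and those of the Norwegian White Sheep (NWS) came from Norway. In any comparison between an Irish and a Norwegian breed, the breed and the country therefore cannot be told apart. There was 1 library per ewe, at 3 states, and 1 of the 115 libraries was left out because its labels disagree. The states were the follicular phase of a natural cycle and the follicular and luteal phases of a synchronised cycle, labelled induced. Natural follicular ewes numbered 8 Suffolk, 10 Belclare, 10 NWS and 10 Fur. In the same order there were 11, 10, 10 and 8 synchronised follicular ewes, and 10, 10, 8 and 9 synchronised luteal ewes. For its synchronised follicular ewes the paper gives progestagen sponges and equine chorionic gonadotropin. No ewe in the comparisons was at the luteal phase of a natural cycle. The age of the ewes is not given in the labels. The paper states a range of years, multiparity and post-mortem sampling for its synchronised follicular ewes. The samples are whole cervical tissue, in which fewer cells of a type and less RNA per cell cannot be told apart.

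Total counts ranged from 12238996 to 31261671 per ewe, with a median of 17835128. MUC5AC had between 13 and 9384 counts, so it was above 3 counts in every library. All 10 markers of columnar epithelium examined, among them CDH1 and the claudins CLDN3, CLDN4 and CLDN7, were above 3 counts in every library. A total of 9 libraries stood apart. The median correlation of 7 with the other ewes of their group was under 0.92, and NWS replicates 4 and 10 of the natural follicular phase had COX-1, a gene of the mitochondrial genome, at 38.8 and 33.0 CPM. The highest Fur ewe had 49.8 CPM of this gene and the lowest of the remaining Irish and NWS ewes 828.3 CPM. The part of these libraries in the results was not tested beyond the values without them given below.

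The level of MUC5AC ran from 0.656 to 729.5 CPM, a 1112-fold range, with a median of 6.27 CPM over all ewes. The ewes over 50 CPM numbered 9, of which 4 were Suffolk, 4 Belclare and 1 NWS, and no Fur ewe was among them. Of the 19 ewes under 2 CPM, 11 were Fur. The 3 highest ewes, Suffolk replicate 2 of the synchronised follicular phase (729.5 CPM), Belclare replicate 7 of the synchronised luteal phase (326.0 CPM) and Suffolk replicate 5 of the synchronised luteal phase (121.1 CPM), together held 51.2% of the MUC5AC summed over all ewes.

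**Figure D1:**
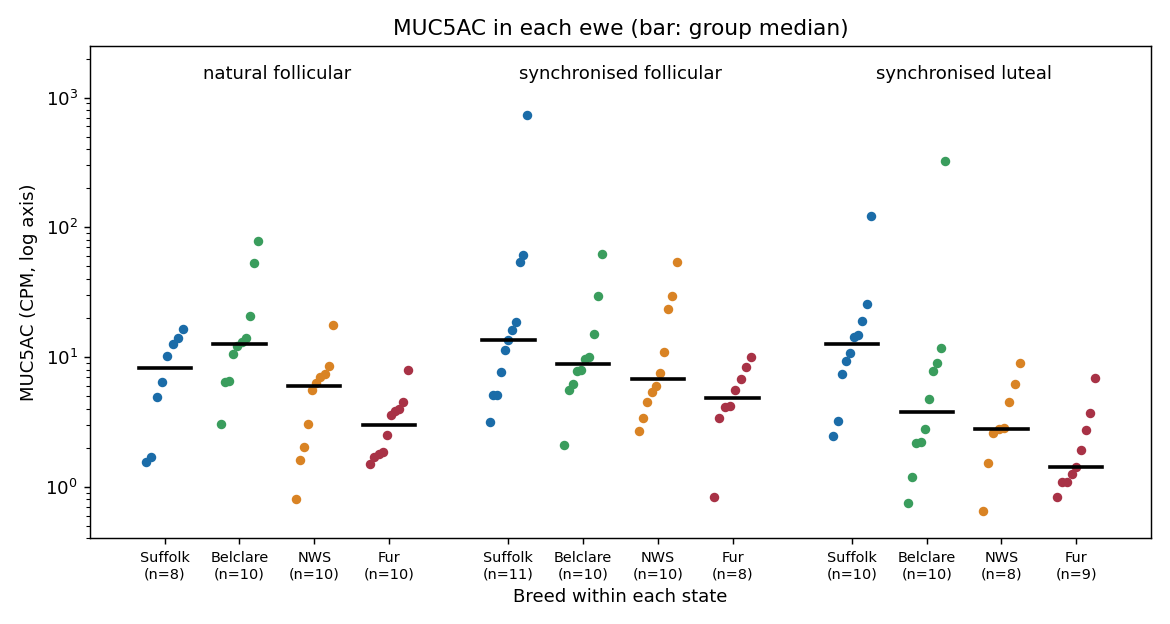
MUC5AC level in CPM (log axis) of each ewe, by breed within each state, where a point is a ewe and a bar the median of its group. Fur has the lowest median in each state (3.01, 4.87 and 1.43 CPM), and single ewes at 729.5, 326.0 and 121.1 CPM lie far above their groups.

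At the natural follicular phase the Belclare ewes had the highest median. MUC5AC ranged from 3.03 to 78.7 CPM in Belclare, with a median of 12.6 CPM. In Suffolk it ranged from 1.54 to 16.4 CPM (median 8.25 CPM). In NWS the range was 0.808 to 17.5 CPM (median 5.94 CPM) and in Fur 1.51 to 8.01 CPM (median 3.01 CPM). Of the 10 Belclare ewes 7 lay above every Fur ewe, and 3 lay above every NWS ewe, while no Suffolk ewe lay above all Belclare ewes.

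At the synchronised follicular phase MUC5AC ranged from 3.18 to 729.5 CPM in Suffolk, with a median of 13.5 CPM and 61.7 CPM in the second highest ewe. Fur ranged from 0.837 to 10.1 CPM, with a median of 4.87 CPM. The median of Suffolk was thus 2.77 times that of Fur, whereas its mean was 15.6 times that of Fur, and 7 of the 11 Suffolk ewes lay above every Fur ewe. These are the values through which the gene was chosen. Belclare ranged from 2.08 to 62.6 CPM (median 8.78 CPM) and NWS from 2.68 to 53.6 CPM (median 6.77 CPM), and the ewes of these breeds overlapped over nearly the whole range.

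At the synchronised luteal phase the Suffolk median, 12.5 CPM, was the highest, and the ewes of this group ranged from 2.47 to 121.1 CPM, with 25.7 CPM in the second highest. Belclare ranged from 0.745 to 326.0 CPM around a median of 3.80 CPM, and its second highest ewe had 11.7 CPM. Replicate 7 alone thus held 88.5% of the MUC5AC of the Belclare group. NWS ranged from 0.656 to 9.02 CPM (median 2.80 CPM) and Fur from 0.833 to 6.88 CPM (median 1.43 CPM). Of the 10 Suffolk ewes 8 lay above every Fur ewe and 7 above every NWS ewe.

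By median the groups followed in the order Suffolk synchronised follicular, Belclare natural, Suffolk luteal, Belclare synchronised follicular, Suffolk natural, NWS synchronised follicular, NWS natural, Fur synchronised follicular, Belclare luteal, Fur natural, NWS luteal and Fur luteal. The ranges of all 12 groups overlapped, since the highest minimum (3.18 CPM) lay below the lowest maximum (6.88 CPM). The order is a description of medians, and overlap of ranges does not show whether groups differ.

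The spread of MUC5AC among ewes of the same breed and state is given as a description, because 1 very high ewe was part of how the gene was chosen. The SD of log2 CPM within groups was 1.50, against a median of 0.38 over the 15649 genes, and 98.4% of genes varied less. Among 1550 genes of similar expression level, 21 varied more than MUC5AC. Differences between the 12 groups took 31.7% of the variance of MUC5AC, against a median of 34.8% over all genes. Without the Fur and Suffolk synchronised follicular groups, left out after seeing the data, the SD was 1.43 against a median of 0.39, and 97.9% of genes varied less. The differences between the 10 remaining groups then took 31.3% of the variance. The SD of MUC5B in these groups was 1.42, but it arose otherwise. By group it was 2.925 in Suffolk natural, 2.02 in NWS natural and 2.06 in NWS synchronised follicular ewes. Each of these groups held 1 library in which MUC5B was nearly absent. In the remaining groups it ran from 0.62 to 1.01, against 0.75 to 2.41 for MUC5AC.

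The breeds were compared with edgeR's quasi-likelihood test in fits of 2 groups at a time, with Benjamini-Hochberg adjustment over all genes tested. A log2 fold change is that of the first named group over the second, given with its standard error (SE). Of 25 contrasts in which MUC5AC was tested, 8 had an adjusted p under 0.05, and of these 3 kept it without the ewe of highest MUC5AC in the contrast. Nothing in the labels says that ewes shared a pen, a day or a sequencing run, and the p-values measure the spread between ewes.

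MUC5AC was higher in Belclare than in Fur at the natural follicular phase, by a log2 fold change of 2.73 (SE 0.53, edgeR's adjusted p = 0.000441), or 6.63-fold. In this contrast 39.3% of all genes passed the same threshold. Without Belclare replicate 1 (78.7 CPM), which is also among the libraries that stood apart, the log2 fold change was 2.26 (adjusted p = 0.000586). The difference of the mean log2 levels was 2.22, with p = 0.00432 after adjustment over the 21 pairs of groups (two-sided exact permutation test). The summed level of the columnar epithelium markers was also higher in Belclare, at 2067.5 to 3445 CPM against 1122 to 1882 CPM in Fur. Nearly all named genes have a name here because they were called higher in Suffolk than in Fur ewes of the synchronised follicular phase. A lower level of the columnar markers in Fur was therefore favoured in advance. The smooth muscle markers ACTG2, DES and ACTC1 were lower in Belclare, with a median sum of 568.3 CPM (70.9 to 6622 CPM). In Fur this sum was 5087 CPM (1648 to 7757 CPM), and the groups overlapped. ACTG2 and ACTC1 are among the paper's top genes lower in Suffolk than in Fur. ACTG2 and DES are among its top genes lower in Suffolk than in NWS. A higher level of these muscle markers in Fur was therefore also favoured in advance. The part of these cell markers in the difference of MUC5AC was not tested.

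At the synchronised luteal phase MUC5AC was lower in Fur than in Suffolk. At -3.28, the log2 fold change had an SE of 0.67 and an adjusted p of 0.00187, where 29.4% of all genes passed, and the Suffolk median was 8.76 times that of Fur. Without Suffolk replicate 5 (121.1 CPM) the log2 fold change was -2.35 (adjusted p = 0.00241). An exact permutation test of the mean log2 levels, which differed by -2.66, gave an adjusted p of 0.00432. The columnar epithelium markers summed to between 1612 and 2659 CPM in Suffolk and between 644.7 and 2460 CPM in Fur, with medians of 2029 and 1521 CPM. The 3 smooth muscle markers summed to a median of 564.1 CPM in Suffolk and 2382 CPM in Fur. The direction of both sums was favoured by how these markers came to be named. The part of these cell markers was not tested.

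These contrasts, Belclare with Fur at the natural and Fur with Suffolk at the luteal phase, were the 2 that kept an adjusted p under 0.05 under every alternative tried. The remaining differences between breeds were smaller or rested on single ewes. At the natural follicular phase the log2 fold change of Fur over Suffolk was -1.36 (SE 0.44, adjusted p = 0.0377, with 19.3% of genes called), and it was -1.15 (adjusted p = 0.0909) without Suffolk replicate 9. That of Belclare over NWS was 1.89 (SE 0.57, adjusted p = 0.0242, 20.7% of genes called), and 1.39 (adjusted p = 0.0592) without Belclare replicate 1. At the luteal phase NWS was lower than Suffolk by a log2 fold change of -2.58 (SE 0.70, adjusted p = 0.0293, 8.45% of genes called), which was -1.65 (adjusted p = 0.0546) without Suffolk replicate 5.

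Every luteal contrast of Belclare with another breed turned on replicate 7. With all ewes, Belclare exceeded Fur by a log2 fold change of 3.96 (SE 1.13, adjusted p = 0.0101, 38.1% of genes called) and NWS by 3.29 (SE 1.17, adjusted p = 0.0473, 24.6% of genes called). Without this ewe the same values were 1.01 (adjusted p = 0.137) and 0.32 (adjusted p = 0.680). Against Suffolk the sign turned, from 0.69 with all ewes (SE 1.01, adjusted p = 0.701, 3.5% of genes called) to -2.25 (SE 0.68, adjusted p = 0.0431) without replicate 7. This leaves out the highest Belclare ewe, while Suffolk replicate 5 (121.1 CPM) stays in. The exact permutation test without replicate 7 gave a difference of -1.84 with an adjusted p of 0.0513, which missed the threshold. With all ewes, 4 of the 10 Belclare ewes had less than the lowest Suffolk ewe.

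No difference passed the threshold between NWS and Fur, the 2 Norwegian breeds, at the natural follicular phase (log2 fold change 0.84, 95% interval -0.06 to 1.75, 0.0639% of genes called) or the luteal phase (0.70, -0.32 to 1.73, 0.0703% of genes called). Belclare and Suffolk, the Irish breeds, differed by 1.37 (0.10 to 2.64) at the natural follicular phase, with an adjusted p of 0.470 and 0.00639% of genes called. There NWS over Suffolk was -0.51 (-1.61 to 0.59), with 0.971% of genes called. Belclare and NWS differed by 0.08 (-1.19 to 1.34) at the synchronised follicular phase, where 35.4% of genes were called. By median NWS lay between Belclare and Fur in all 3 states.

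**Figure D2:**
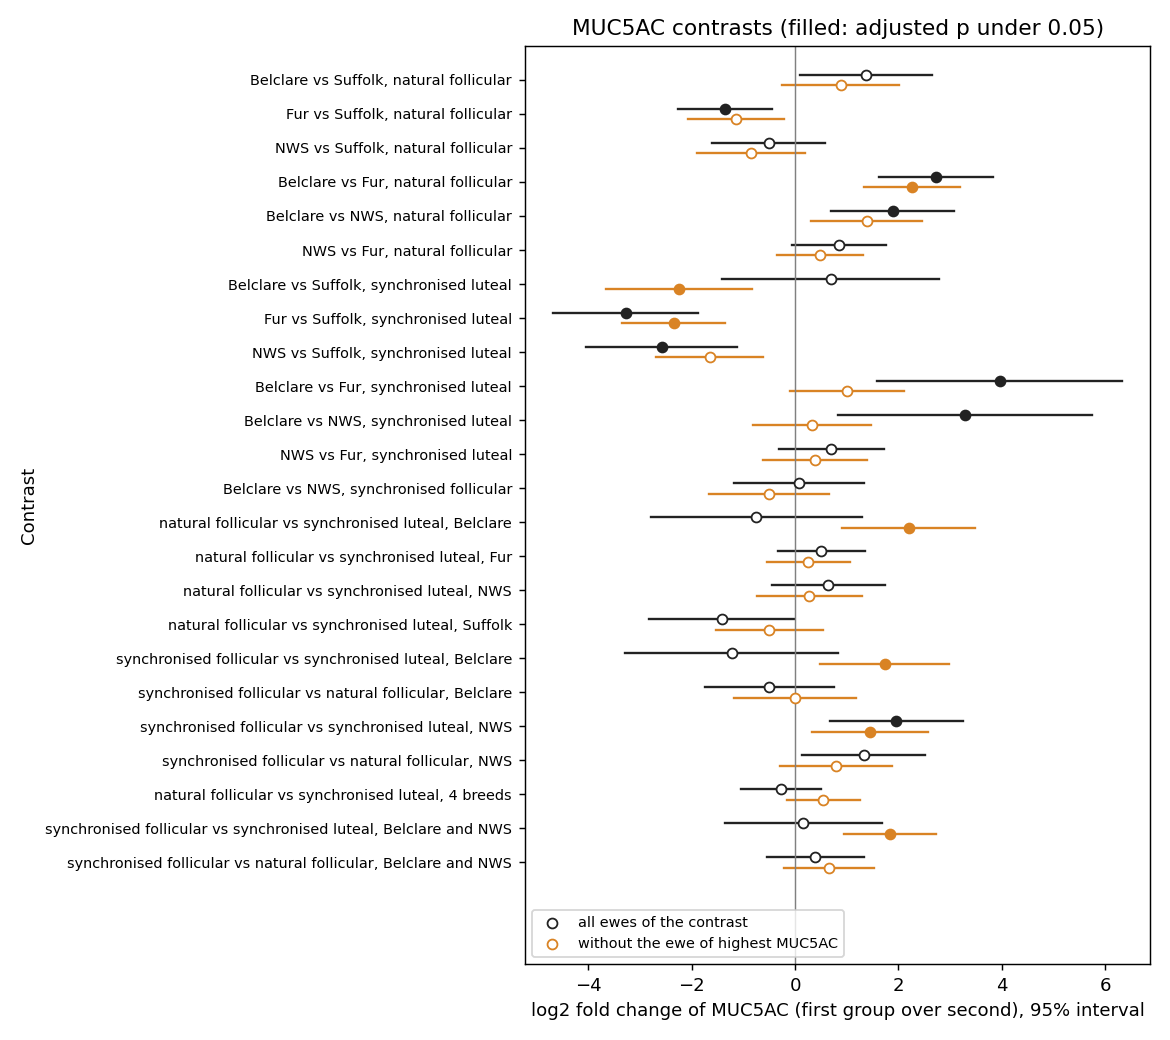
Log2 fold change of MUC5AC (first group over second) with its 95% interval in 24 contrasts, fitted with all ewes (black) and without the ewe of highest MUC5AC (orange), where a filled point has an adjusted p under 0.05. The luteal contrasts of Belclare move most, for example from 0.69 to -2.25 against Suffolk.

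The phase of the cycle was compared within breeds. Between the natural follicular and the synchronised luteal phase, cycle type and phase change together and cannot be told apart. With the 4 breeds fitted together, MUC5AC had a log2 fold change of -0.27 for the follicular over the luteal phase (SE 0.39, 95% interval -1.05 to 0.51, adjusted p = 0.560), in a contrast in which 62.1% of all genes were called. Without Belclare luteal replicate 7 the sign turned, to 0.55 (adjusted p = 0.167). By breed the values were 0.51 in Fur (adjusted p = 0.330), 0.64 in NWS (adjusted p = 0.428), -1.42 in Suffolk (adjusted p = 0.137) and -0.75 in Belclare (adjusted p = 0.567). Of all genes, 39.4%, 13.4%, 20.4% and 39.1% were called in these breeds. A test of whether the phase difference varied between breeds gave an adjusted p of 0.606, and 0.0654 without Belclare luteal replicate 7, where 0.505% of genes passed with all ewes.

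Medians were higher at the natural follicular than at the luteal phase in Belclare (12.6 against 3.80 CPM), NWS (5.94 against 2.80 CPM) and Fur (3.01 against 1.43 CPM), and lower in Suffolk (8.25 against 12.5 CPM). In Belclare, leaving out luteal replicate 7 moved the log2 fold change from -0.75 to 2.20 (SE 0.62, adjusted p = 0.00800). In Suffolk, leaving out luteal replicate 5 moved it from -1.42 to -0.50 (adjusted p = 0.497).

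Within the synchronised cycle, phases can be compared in Belclare and NWS. NWS ewes had more MUC5AC at the follicular than at the luteal phase, with medians of 6.77 and 2.80 CPM and a log2 fold change of 1.96 (SE 0.62, adjusted p = 0.0173, 40.8% of genes called). Without NWS follicular replicate 9 (53.6 CPM), whose library stood apart, the log2 fold change was 1.45 (adjusted p = 0.0388). In an exact permutation test of mean log2 levels the adjusted p was 0.0806. In Belclare the log2 fold change was -1.23 (adjusted p = 0.329, 42.9% of genes called) with all ewes and 1.73 (adjusted p = 0.0241) without luteal replicate 7. Over both breeds it was 0.16 (adjusted p = 0.865, 57.9% of genes called), and 1.84 (adjusted p = 0.000539) without that ewe.

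The synchronised and the natural follicular phase were compared in the same breeds. The log2 fold change of synchronised over natural was -0.50 in Belclare (95% interval -1.75 to 0.76), 1.33 in NWS (0.14 to 2.52, adjusted p = 0.338) and 0.39 over both (-0.54 to 1.33, adjusted p = 0.878). In the NWS contrast 0.0128% of all genes were called. In Belclare and over both breeds edgeR called 0% of genes, with 332 and 1049 of the 15649 at an unadjusted p under 0.05, and DESeq2's Wald test called 0 and 2 genes. For Fur the medians were 4.87 CPM at the synchronised and 3.01 CPM at the natural follicular phase, and for Suffolk 13.5 and 8.25 CPM, without a test.

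The other mucins measured had a phase difference that passed the threshold. MUC5B, the other gel-forming mucin measured here, had a median of 63.4 CPM over all ewes, against 6.27 CPM for MUC5AC. MUC5B and the membrane mucins MUC1 and MUC16 all rose at the natural follicular against the luteal phase over the 4 breeds. All 3 did so also without the libraries that stood apart. The background is high, since 32.2% of all genes rose and 29.9% fell. MUC16 rose by a log2 fold change of 1.27 (SE 0.16, adjusted p = 1.95e-10), MUC5B by 0.71 (SE 0.25, adjusted p = 0.0116) and MUC1 by 0.67 (SE 0.13, adjusted p = 1.16e-05). By breed the MUC5B median was higher at the natural follicular phase in Belclare (154.3 against 45.5 CPM), Suffolk (92.6 against 52.6 CPM) and NWS (50.8 against 27.5 CPM). In Fur it was not (30.3 against 34.1 CPM), and in Suffolk the mean log2 CPM was lower (5.37 against 5.63). For MUC5AC the same fit gave -0.27 with a standard error of 0.39. As given above, that sign turned without Belclare luteal replicate 7, and MUC5AC was not called in either fit. MUC5AC and MUC5B are related in sequence and adjacent in the RefSeq annotation of another sheep assembly (ARS-UI_Ramb_v3.0). Only uniquely mapped read pairs were counted, so reads from shared or repeated stretches of either gene may be missing.

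Their levels did not follow each other closely from ewe to ewe. Over all ewes of the 12 groups, with the mean of each group taken off, the Spearman correlation of log2 CPM with MUC5AC was 0.11 for MUC5B, 0.29 for MUC16 and 0.27 for MUC1, given as a description of ewes that share breed and state. Without the Fur and Suffolk synchronised follicular groups the values were 0.06, 0.30 and 0.29. MUC5B was nearly absent from 3 libraries, Suffolk replicate 4 and NWS replicate 5 of the natural follicular phase (0.278 and 1.13 CPM) and NWS replicate 9 of the synchronised follicular phase (0.740 CPM). The last of these had the highest MUC5AC of all NWS ewes, 53.6 CPM. All 3 are among the libraries that stood apart.

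**Figure D3:**
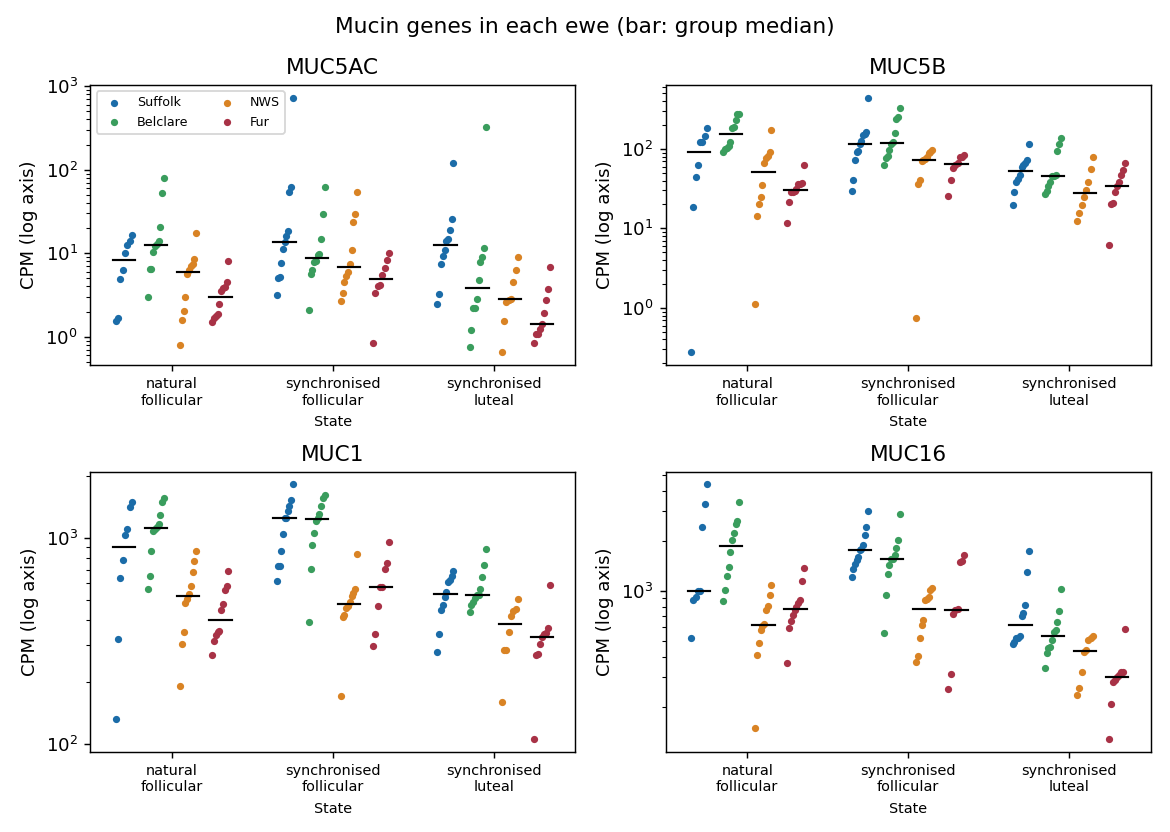
Levels of MUC5AC, MUC5B, MUC1 and MUC16 in CPM (log axes, which differ between panels) in each ewe, by state and breed, with a bar at each group median. MUC16 has a lower median at the luteal than at the natural follicular phase in each breed, for example 536.4 against 1868 CPM in Belclare, while MUC5AC shows single high ewes.

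Genes for glycan building, ion and water transport, granule release, protein folding and steroid response were followed in the same fit. They came from lists of named genes. Nearly all of these have a name here because they were called higher in Suffolk than in Fur ewes of the synchronised follicular phase. Whether their products act on mucins was not tested. Of 10 enzymes that build glycans, 3 rose (30%) and 2 fell (20%) at the natural follicular phase, neither share above the 32.2% and 29.9% of all genes, and the median log2 fold change was 0.06 against 0.01 over all genes. The sialyltransferase ST6GAL2 rose by 2.06 (adjusted p = 2.9e-12), the galactosyltransferase B4GALT1 by 0.55 and the fucosyltransferase FUT4 by 0.53. The sulfotransferase CHST9 fell by 0.73 and B4GALNT4, which transfers N-acetylgalactosamine, fell by 0.45, on the log2 scale. ST6GAL2 and CHST9 had low medians over all ewes, 2.45 and 0.962 CPM.

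Among all genes 32.2% rose and 29.9% fell. Of 6 genes for ion and water transport, on which the hydration of released mucus depends, 4 rose (66.7%) and 1 fell (16.7%, median 0.88). The proton pump ATP12A rose by a log2 fold change of 2.95, the sodium channel subunit SCNN1D by 2.01, the chloride channel CFTR by 1.27 (adjusted p = 2.23e-08) and the water channel AQP5 by 0.48, whereas the sodium channel subunit SCNN1A fell by 0.69. Of 6 genes for granule release and protein folding, 5 rose (83.3%) and 1 fell (16.7%, median 0.50). Among them the disulfide isomerase TXNDC5 rose by 0.71, the granule GTPase RAB3D by 0.64 and the sulfhydryl oxidase QSOX1 by 0.60, and the syntaxin STX3 fell by 0.33. Of 5 steroid-responsive genes 3 rose (60%), namely GREB1 by 3.22 and the oxytocin receptor OXTR by 3.24 on the log2 scale, and PADI2 by 0.79. ATP12A, SCNN1D and OXTR were near the floor, with medians of 1.99, 0.874 and 2.89 CPM over all ewes. They had 3 counts or fewer in 7, 11 and 10 ewes.

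**Figure D4:**
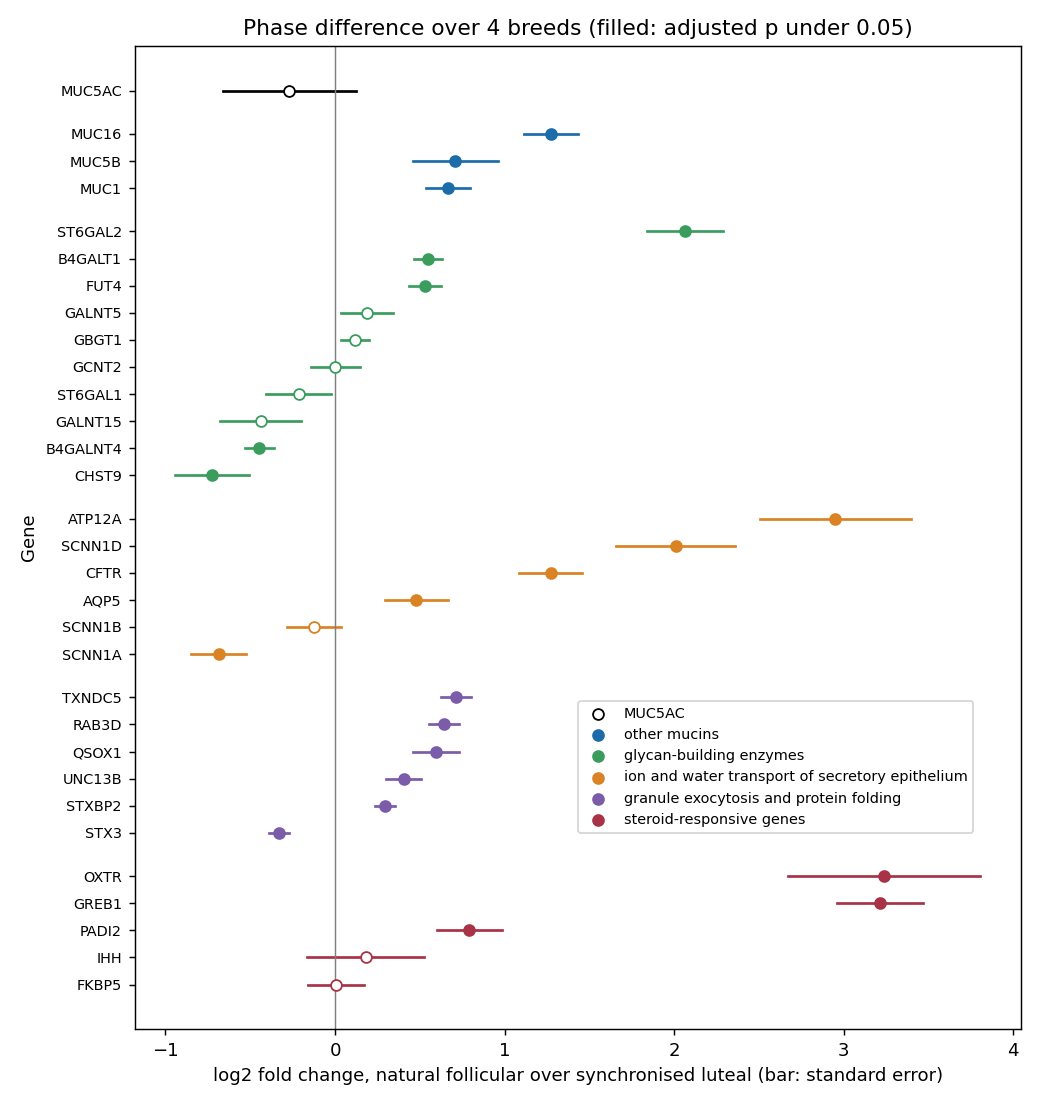
Log2 fold change (natural follicular over synchronised luteal phase, 4 breeds) of MUC5AC and of 30 listed genes, with bars of 1 standard error, where filled points have an adjusted p under 0.05. MUC5AC at -0.27 has one of the wider bars and is not filled, while GREB1 and OXTR lie beyond 3. Without Belclare luteal replicate 7, a fit not drawn here, the sign of MUC5AC turned.

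The markers of cell types are set against the same shares of all genes, 32.2% higher and 29.9% lower. Of 10 columnar epithelium markers 1 rose and 2 fell (median 0.06), which is below both shares, while all 3 smooth muscle markers rose (median 1.59). Of 6 immune cell markers 4 fell and none rose (median -0.54), while 3 of 4 neutrophil entries rose and AQP9 fell by 4.07 on the log2 scale. ACTC1 and both CXCR2 entries were near the floor, with medians of 0.713, 0.776 and 0.421 CPM over all ewes. They had 3 counts or fewer in 17, 26 and 22 ewes. Of 4 squamous epithelium markers 2 rose and 1 fell (median 0.60), and neither of the 2 endothelial markers was called. The part of these markers in the mucin levels was not tested.

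The cell markers of the 3 ewes of highest MUC5AC are a description, since these ewes were picked for their MUC5AC and the gene was chosen through the first of them. The summed level of the 6 immune cell markers, PTPRCAP, ITGB2, LCP1, ITGAX, CD27 and IKZF1, was the highest of its group in each of the 3 highest ewes. It was 200.3 CPM in Suffolk replicate 2 of the synchronised follicular phase, against 86.2 to 131.6 CPM in the other 10 ewes of that group. Belclare luteal replicate 7 had 207.7 CPM against 84.2 to 113.8 CPM, and Suffolk luteal replicate 5 had 157.7 CPM against 87.4 to 135.8 CPM. The neutrophil markers did not follow, since in the same order the ewes ranked 11 of 11, 10 of 10 and 6 of 10 from the highest. For the other mucins they ranked 2 of 11, 1 of 10 and 2 of 10, and for the columnar epithelium markers 4 of 11, 6 of 10 and 6 of 10. For the steroid-responsive genes the ranks were 6 of 11, 10 of 10 and 10 of 10. Those for ion and water transport were 7 of 11, 7 of 10 and 10 of 10. The immune sum was thus not the only one at an end of its group. Over all ewes and within groups, the Spearman correlation of MUC5AC with the summed immune markers was 0.24, with the columnar markers 0.25, with the glycan-building enzymes 0.40 and with the smooth muscle markers -0.35. Without the Fur and Suffolk synchronised follicular groups these values were 0.23, 0.24, 0.39 and -0.31. The part of immune cells in the MUC5AC level was not tested.

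**Figure D5:**
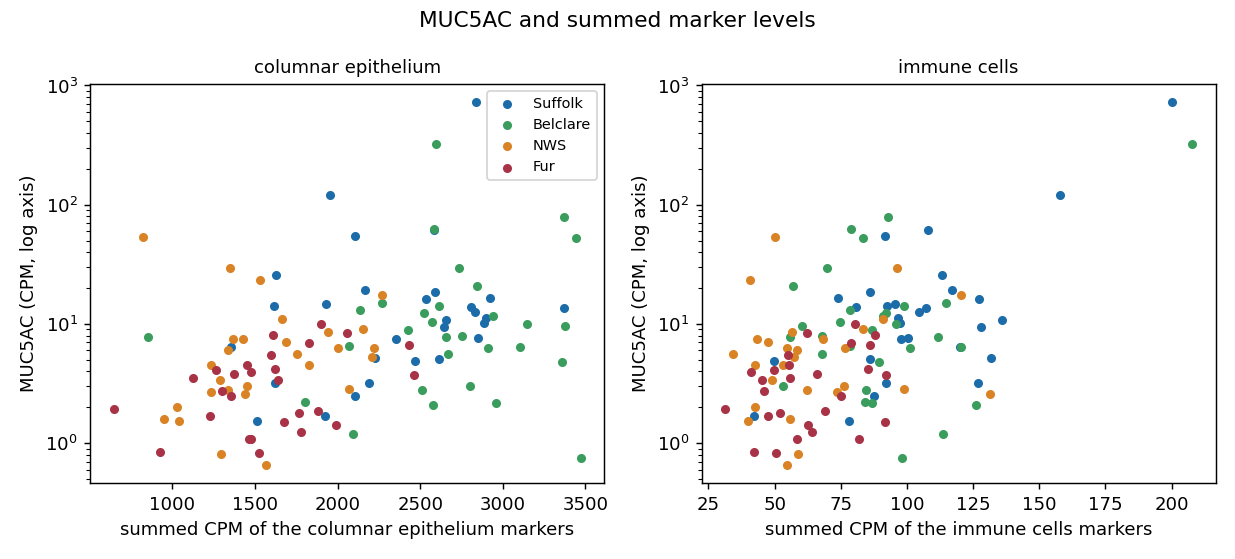
MUC5AC in CPM (log axis) against the summed CPM of the columnar epithelium markers (left) and of the immune cell markers (right), where each point is a ewe, coloured by breed. The 3 ewes of highest MUC5AC have the 3 highest immune sums (200.3, 207.7 and 157.7 CPM) and lie within the range of the columnar sums.

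Among the named genes most like MUC5AC across ewes were PTPN7 (Spearman 0.44), MYO10 (0.43), SASH3 (0.41), SOAT1 (0.41), ADCY7 (0.40), PCDH1, PDZK1IP1, H6PD and GSR, as a correlation of log2 CPM over all ewes of the 12 groups with group means taken off. PTPN7 and SASH3 are known from blood cells, in which they act in lymphocyte signalling. Within single groups their correlation with MUC5AC varied, from 0.006 to 0.90 for PTPN7 and from -0.37 to 0.84 for SASH3. The correlations over 12 groups include the Fur and Suffolk synchronised follicular ewes through which MUC5AC was chosen. The 10 genes of highest correlation had no name in the tables used, the first being ENSOARG00000002786 (0.61), singled out after its values were seen. The unnamed ENSOARG00000016098, which is also high in Suffolk replicate 2 of the synchronised follicular phase (524.5 CPM), had a correlation of 0.12.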

How the data were processed

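The authors prepared stranded mRNA libraries from cervical tissue, trimmed the reads with BBDuk, used STAR 2.6.1b with the Oar_v3.1 sheep assembly, kept uniquely mapped pairs with few mismatches and assigned these to Ensembl genes by featureCounts (Subread 1.6.3). They deposited raw counts per gene and ewe, without normalization. Whether counting used the strand is not given in the sources used here. Gene names came from the paper's supplementary tables.

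Groups were taken from the labels, and 1 library whose title and other labels name different states was left out of every comparison. No 2 libraries of a group agreed within counting noise (lowest chi-square per degree of freedom 15.5 over 490 pairs). CPM used TMM library sizes computed over the ewes of all 12 groups together, from the genes tested. Genes with at least 1 CPM in at least 10 ewes were tested with edgeR 4.0.16 (R 4.3.3), each contrast on its own ewes, with breed as a covariate where several breeds entered. The standard error is the size of the log2 fold change divided by the square root of F. For MUC5AC alone, exact permutation tests used log2 CPM with a prior count of 2. The tests were tried on simulated data.

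The alternatives were DESeq2 1.42.0 size factors and Wald test, other filters, a fit of all 12 groups, the replicate number as a block, the ewe of highest MUC5AC left out, and each ewe left out in turn. Leaving out the libraries that stood apart was added after seeing the data. Named were MUC5AC, the listed genes, ENSOARG00000016098 and the 10 named genes most correlated with MUC5AC, of which 1 is not reported here. MUC5AC and all lists were chosen with earlier results of these data known.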

Additional observations from a re-analysis of the deposited data

Results flagged for a closer look

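Among groups of 8 to 10 ewes, single ewes lay farther from the rest than Dixon's critical value allows. Chance gives this in about 1 of 20 groups of normally distributed values, a rate that does not apply to levels as skewed as these. For MUC5AC these were Belclare luteal replicate 7 (326.0 CPM), Suffolk luteal replicate 5 (121.1 CPM), Belclare synchronised follicular replicate 9 (62.6 CPM), NWS synchronised follicular replicate 9 (53.6 CPM), NWS natural follicular replicate 3 (17.5 CPM), Fur natural follicular replicate 5 (8.01 CPM) and Fur luteal replicate 9 (6.88 CPM). In each case it was the highest ewe of its group. The values were taken on the linear scale. On the log2 scale, tried after seeing the data, the highest ewe passed the critical value in 1 of the 11 groups, Belclare luteal, and the lowest ewe in 1, Fur synchronised follicular.

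For ENSOARG00000016098, which is named because it is high in the same Suffolk ewe, the ewes set apart in the same way were Belclare natural follicular replicate 6 (288.9 CPM), Belclare synchronised follicular replicate 1 (263.2 CPM) and Belclare luteal replicate 6 (62.3 CPM). None of these is the highest ewe of its group for MUC5AC.

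The library without a group had 210 counts of MUC5AC in a total of 15387419, or 13.6 CPM of its own total count. It entered no comparison.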

How the results depend on the processing

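MUC5AC kept its direction and its side of the threshold in all 25 contrasts with DESeq2 size factors and with the filter on synchronised follicular ewes. Without a filter on low counts 24 kept both, and Belclare over NWS at the luteal phase gave 3.28 (adjusted p = 0.0614). Values are log2 fold changes, and the cause of a change was not tested except where leaving out a ewe shows it.

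In 1 fit of 12 groups, Fur over Suffolk at the natural phase gave -1.36 (adjusted p = 0.214) and NWS synchronised follicular over luteal 1.97 (adjusted p = 0.0504). The DESeq2 tests kept their default step, which replaces counts flagged as outliers. Whether the count of Belclare luteal replicate 7 was replaced was not examined. The DESeq2 values are therefore not separate support for the fits without that ewe. DESeq2's Wald test gave, at the luteal phase, -1.17 for Belclare over Suffolk, 0.97 for Belclare over Fur and 0.32 for Belclare over NWS. Against the Belclare luteal ewes it gave 2.10 for the natural (adjusted p = 0.000575) and 1.02 for the synchronised follicular phase, and 1.80 (adjusted p = 1.93e-05) for the latter with NWS included. The interaction was not called in DESeq2's likelihood ratio test.

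Replicate numbers do not pair ewes, since the median correlation of deviations was -0.01 over 590 pairs of the same number, 158 of them over 0.1, and 0.00 over 5361 other pairs. With the replicate number as a block, Fur over Suffolk natural was -1.22, Belclare over NWS natural 1.57, NWS over Suffolk luteal -1.96 and NWS synchronised follicular over luteal 1.51, none called. The luteal Belclare contrasts under the block were -1.53 against Suffolk, 1.39 against Fur and 0.74 against NWS, with 1.48 for natural and 1.06 for synchronised follicular over luteal.

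Without the ewe of highest MUC5AC, Fur over Suffolk natural was -1.15, Belclare over NWS natural 1.39, NWS over Suffolk luteal -1.65 and Belclare over NWS synchronised follicular -0.51. Without Belclare luteal replicate 7 the luteal values were -2.25 against Suffolk, 1.01 against Fur and 0.32 against NWS. The follicular over luteal values were then 2.20 (natural) and 1.73 (synchronised) in Belclare, 1.84 in Belclare with NWS and 0.55 over 4 breeds.

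Leaving out the 9 libraries that stood apart, which include this ewe, was chosen after seeing the data. It gave the same 3 luteal values, -1.18 for Fur over Suffolk natural and 1.12 for Belclare over NWS natural. In Belclare it gave 1.70 for natural and 1.78 for synchronised follicular over luteal, and 0.078 for synchronised over natural. The value was 1.62 with NWS included and 0.55 over 4 breeds. The counts of list genes moved by no more than 1.5 times.

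Differences of mean log2 CPM, tested by exact permutation, were -1.09 for Fur over Suffolk natural (-1.37 to -0.90 with each ewe left out in turn) and 1.65 for Belclare over NWS natural (1.37 to 1.89). At the luteal phase they were -1.19 for Belclare over Suffolk (-1.84 to -0.82), 1.47 for Belclare over Fur (0.82 to 1.77) and 0.83 for Belclare over NWS (0.18 to 1.13). NWS over Suffolk luteal was called with all ewes (adjusted p = 0.0397), but in only 6 of the 18 tests that left out 1 ewe, where the difference ran from -2.27 to -1.65 and the adjusted p reached 0.0780. Follicular over luteal was 1.36 for natural Belclare (1.06 to 2.02), 0.92 for synchronised Belclare (0.62 to 1.57) and 1.598 for NWS (1.31 to 1.82). Belclare over NWS at the synchronised follicular phase ran from -0.14 to 0.43. Of the 10 named genes most like MUC5AC, 7 remained among the first 10 without the 2 highest ewes and 4 with Pearson's correlation.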
